A study of Mus musculus with 32 samples.

Results

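Embryonic mouse liver of 12.5 and 13.5 days post conception (4 arrays, 2 per stage) was compared with liver of 11.5 days (2 arrays). These 6 arrays are among 32 of the series, and they were taken by the source name of each sample. Livers were dissected from embryos of CD-1 mice, an outbred stock with no engineered allele named; the embryos had no treatment, and the surrounding tissue was taken off. The total RNA on each array was pooled from no fewer than 3 livers, each of a different animal, and hybridised to an Affymetrix Mouse Genome 430 2.0 array, on which short DNA probes measure a transcript by the brightness of bound labelled RNA. The other 26 arrays hold liver of 10.5, 14.5 and 16.5 days and adult liver before and after partial hepatectomy, and in the tests they entered only the estimate of the spread. An age of 10.5 days in another label field of every embryonic sample, and a description as adult female, go against the source names and titles, and were not used. The 2 arrays of a stage hold different pools, and the spread between such pools is what the p-values measure.

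The liver of the mouse embryo is an organ of blood formation as well as the forerunner of the adult liver. The first red cells come from the yolk sac, still carry a nucleus and hold embryonic globins, while the red cells made in the fetal liver hold adult-type globins and lose the nucleus as they mature. Around these blood cells, hepatoblasts, the common precursors of hepatocytes and bile duct cells, begin to secrete plasma proteins and to take up metabolic work.

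Values are array intensities as deposited, called levels here, and they can fall below 0. Differences are on the scale of log2(value + 16) after values below 0 were set to 0, so that changes of dim genes are understated. The hepatocyte product Alb had levels of 8524 and 8035 at 12.5 days and 8537 and 8865 at 13.5 days, against 6433 and 6058 at 11.5 days, and Afp, the fetal counterpart of albumin, had 6083 and 5971 at 12.5 days and 5963 and 6065 at 13.5 days, against 5496 and 6108 at 11.5 days. Both defining products of fetal liver were thus abundant on every array. Alb was not called (log2 difference 0.44 ± 0.24 (SE), adjusted p = 0.39), nor was Afp (log2 difference 0.06 ± 0.15 (SE), adjusted p = 0.93). Alb was called higher with quantile normalization (0.64) and with only the 6 arrays fitted (0.44). Array medians of the series ran from 69.7 to 79.5.

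From 18193 genes tested, 867 were higher at 12.5 and 13.5 days than at 11.5 days (4.77%) and 278 were lower (1.53%), which is 6.29% in all, at an adjusted p under 0.05. These genes are referred to as called. The change was mostly upward and larger in that direction: 422 of the rises and 68 of the falls were at least 2-fold. All 4 arrays of 12.5 and 13.5 days lay beyond both arrays of 11.5 days in 845 of the 867 rises and 269 of the 278 falls. A call on the same arrays favours such separation, so these counts add no support to the calls. The share over all genes is not given here. The median difference over all genes was 0.0093, close to 0. Against 11.5 days, the called rises had a median difference of 0.88 at 12.5 days and 1.07 at 13.5 days, and the called falls -0.60 and -0.86. These genes were called on the mean of both stages, which favours a difference at each. Over all genes, the 12.5-day arrays alone gave 497 higher and 82 lower calls against 11.5 days (2.73% and 0.451%). The 13.5-day arrays alone gave 809 and 334 (4.45% and 1.84%). Between 13.5 and 12.5 days themselves 24 genes were called (0.132%), 4 higher (0.022%) and 20 lower (0.11%). The share of all genes called against 11.5 days also changed with the setting. It was 6.87% higher and 2.59% lower with only the embryonic arrays fitted, and 4.41% and 1.73% with quantile normalization. List counts under an alternative, given below, are to be read beside its share of all genes. The number of calls rests on both 11.5-day arrays: without the first it was 713 (530 higher, 183 lower) and without the second 485 (421 higher, 64 lower).

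**Figure D1:**
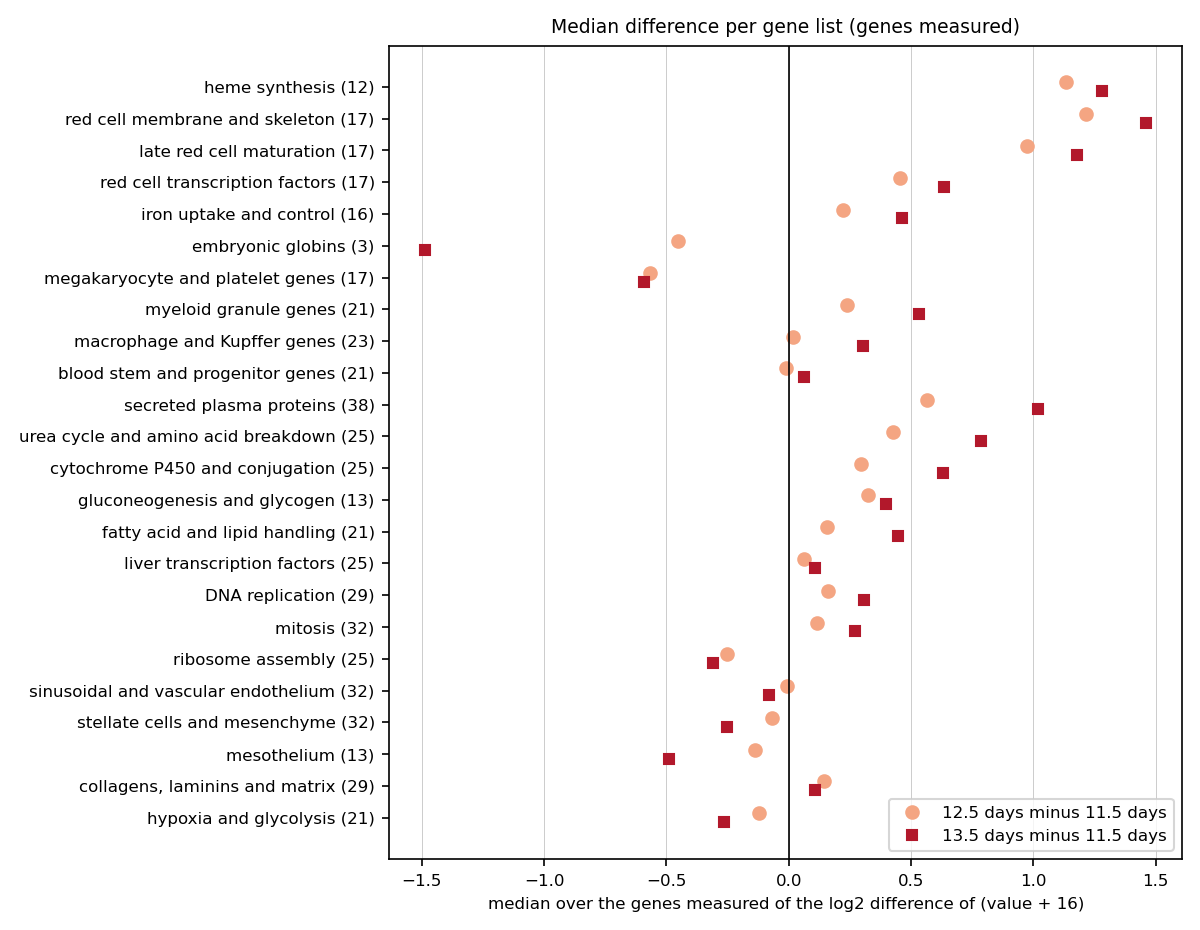
For each gene list (rows, with the number of genes measured), the horizontal axis gives the median over its genes of the log2 difference of (value + 16) from 11.5 days, for 12.5 days (circles) and 13.5 days (squares). The lists of heme synthesis, at 1.13 and 1.28, and of the red cell membrane lie furthest to the right, while the megakaryocyte and embryonic globin lists lie to the left of 0.

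Among the embryonic globins 2 of 3 were called lower. Hbb-bh1, an embryonic beta-like globin, had levels of 777 and 2175 at 12.5 days and 722 and 884 at 13.5 days, against 3946 and 3509 at 11.5 days, and it fell on every array (log2 difference -1.85 ± 0.32 (SE), adjusted p = 0.00053). Hba-x, the embryonic alpha-like globin zeta, had levels of 3557 and 6680.2 at 12.5 days and 2468 and 2290.4 at 13.5 days, against 6797 and 6577 at 11.5 days and also fell (log2 difference -0.97 ± 0.24 (SE), adjusted p = 0.014), with the second array of 12.5 days overlapping the 11.5-day arrays. That array was the highest of the 4 later arrays in both genes. Hbb-y, the other embryonic beta-like globin, had levels of 3739 and 4173 at 12.5 days and 3323 and 3503 at 13.5 days, against 3676 and 3709 at 11.5 days and was not called, its groups overlapping (log2 difference -0.01 ± 0.25 (SE), adjusted p = 1). The probe set of Hbb-y is of a type that can bind several related transcripts, so its level may not be that of Hbb-y alone. With such probe sets left out Hbb-y differed by -0.28 and was not called. With only the 6 arrays fitted neither Hbb-bh1 nor Hba-x was called. Without either 11.5-day array Hba-x was not called (-0.95 and -0.99), nor was it without the first 12.5-day array (-0.74).

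Of 3 adult-type globins measured, 2 were called higher, and both values are uncertain. The probe set chosen for Hba-a1, an alpha globin gene, had low levels, of 95.0 and 74.0 at 12.5 days and 78.8 and 84.3 at 13.5 days, against 45.4 and 38.8 at 11.5 days (log2 difference 0.77 ± 0.14 (SE), adjusted p = 0.0012). For Hbb-b2, an adult-type beta globin gene, the levels were 2812 and 2185 at 12.5 days and 2469 and 2597 at 13.5 days, against 725 and 415 at 11.5 days (log2 difference 2.16 ± 0.42 (SE), adjusted p = 0.0022). All 4 later arrays lay above both earlier ones in each gene. Hba-a2, the other alpha globin gene, was near 0 at 37.2 and 6.47 at 12.5 days and 9.47 and 31.2 at 13.5 days, against 20.1 and 9.46 at 11.5 days, and was not called (0.19, adjusted p = 0.85). The Hbb-b2 value is uncertain: its probe set is of the type that can bind several related transcripts, and the difference turned to -2.35 when such probe sets were left out and to -0.10 over the mean of its probe sets, and it was no longer called without the second 11.5-day array (1.77). Hba-a1 differed by 0.47 with a constant of 64. Its value is uncertain as well, since its levels lay near the median of all values, 74.6. Its mean at 10.5 days, 64.5, was also above that of 11.5 days, 42.1. In these bulk samples fewer cells of a type and less RNA per cell cannot be told apart.

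Genes of heme synthesis, which makes the iron-holding group of hemoglobin, rose together. Of 12 measured, 9 were called higher (75%, against 4.77% of all genes) and 0 lower. All 12 differences were above 0 with a median of 1.21, against the median of 0.0093 over all genes. Alas2, the red cell enzyme that starts the pathway, had levels of 3646 and 3066 at 12.5 days and 4220.3 and 4208 at 13.5 days, against 764 and 396 at 11.5 days. Both stages lay far above both 11.5-day arrays, with no overlap (log2 difference 2.73 ± 0.29 (SE), adjusted p = 1.3e-06). Fech, which inserts the iron in the last step, had levels of 4469 and 3792 at 12.5 days and 5484 and 4809 at 13.5 days, against 1684 and 1344 at 11.5 days (log2 difference 1.60 ± 0.18 (SE), adjusted p = 3.3e-06). Slc25a37, the importer of iron into mitochondria, had 5115 and 4599 at 12.5 days and 5638 and 5402 at 13.5 days, against 1629.7 and 979 at 11.5 days (log2 difference 2.02 ± 0.24 (SE), adjusted p = 6.1e-06). Every later array again lay above both 11.5-day arrays in Fech and Slc25a37. Uros and Urod, which act in succession in the middle of the pathway, rose by 1.13 and 1.20 (adjusted p = 0.00023 and 0.00029). Urod, Alad and Cpox are named after their values were seen. The 3 members not called were Alas1, Alad and Cpox, of which Alad had 3791 and 3388 at 12.5 days and 3981 and 3537 at 13.5 days, against 2459.6 and 1383 at 11.5 days (0.98, adjusted p = 0.11) and Cpox 3298 and 3319.6 at 12.5 days and 3356 and 3308 at 13.5 days, against 2644 and 2464 at 11.5 days (0.38, adjusted p = 0.66). Between 13.5 and 12.5 days none of the 12 was called, and the median difference was 0.20. Against 11.5 days all 12 were called higher with only the embryonic arrays fitted. Without the second 11.5-day array 6 of the 12 were called.

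The membrane and skeleton of the red cell also rose. 12 of 17 measured were higher (70.6%, against 4.77% of all genes) and 0 lower, with a median of 1.34. Slc4a1 is the anion exchanger band 3, the most abundant protein of the red cell membrane. Its levels were 4814 and 4135 at 12.5 days and 5147 and 4855 at 13.5 days, against 1326 and 827 at 11.5 days, and the groups did not overlap (log2 difference 2.16 ± 0.26 (SE), adjusted p = 8.7e-06). Dmtn, which bundles actin in the skeleton beneath the membrane, had 848 and 763 at 12.5 days and 1249.6 and 1107 at 13.5 days, against 223 and 134 at 11.5 days (log2 difference 2.39 ± 0.20 (SE), adjusted p = 6e-08). Sptb, the beta chain of spectrin, had 616 and 703 at 12.5 days and 978 and 904 at 13.5 days, against 293 and 183 at 11.5 days (log2 difference 1.69 ± 0.16 (SE), adjusted p = 3.8e-07). The 2 values of 13.5 days exceeded the 2 of 12.5 days in both Dmtn and Sptb, but neither was called between those stages (adjusted p = 0.9 and 0.75). Icam4, a red cell adhesion molecule, had 1638 and 1512 at 12.5 days and 1962 and 1820.2 at 13.5 days, against 819.7 and 626 at 11.5 days (log2 difference 1.25 ± 0.11 (SE), adjusted p = 1.9e-07). Tmcc2, a transmembrane coiled-coil protein and among the 15 largest rises, averaged 3070.1 ± 518 (SD, n = 4) at 12.5 and 13.5 days and 221 ± 56.3 (SD, n = 2) at 11.5 days (log2 difference 3.71 ± 0.27 (SE), adjusted p = 1.1e-08, 13.1-fold). Epb42, Rhd and Tmod1, named after their values were seen, encode a band 3 partner, a blood group protein and a cap of actin filaments, and rose by 1.90, 1.84 and 2.41. The difference was smaller over the mean of all probe sets for Dmtn (1.16) and Sptb (0.96). The count was 12 with only the 13.5-day or only the 12.5-day arrays set against 11.5 days, and 11 without the second 11.5-day array.

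**Figure D2:**
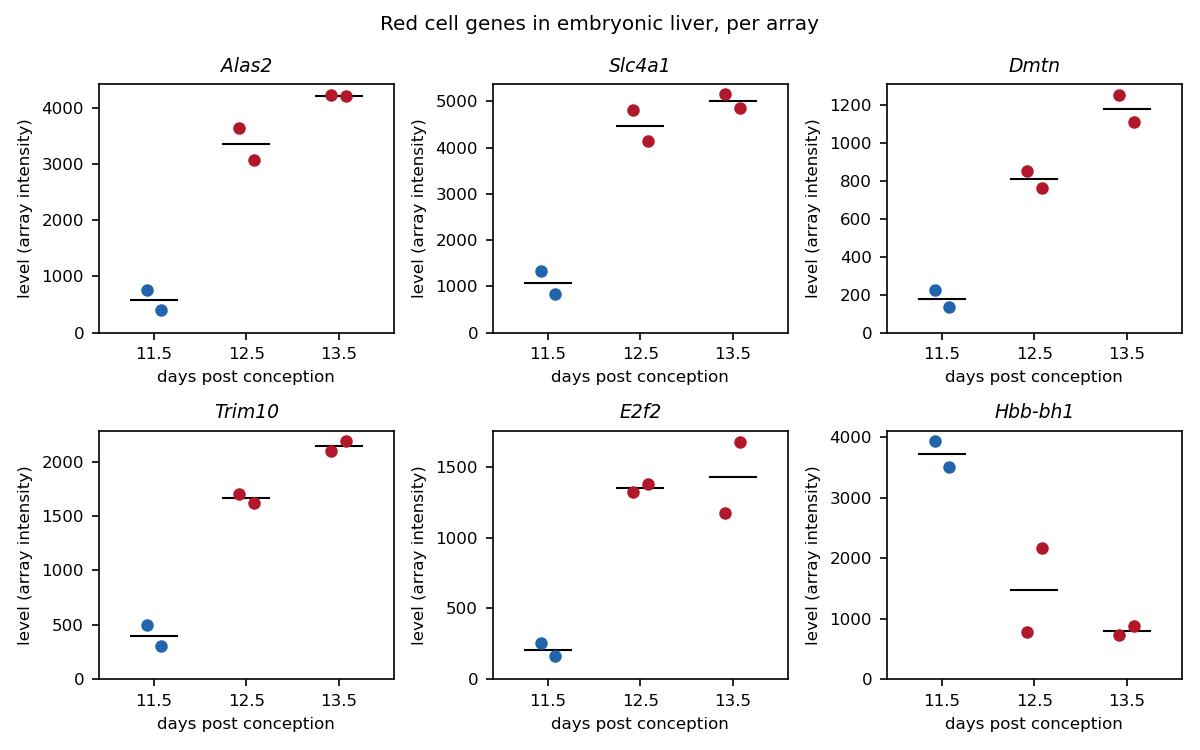
Levels of 6 red cell genes (vertical axis, array intensity) at 11.5, 12.5 and 13.5 days post conception (horizontal axis). Each point is 1 array and each bar the mean of 2; the 5 genes of maturing red cells stand above 11.5 days on all 4 later arrays, while Hbb-bh1 stands below, with the second 12.5-day array at 2175.

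Late maturation genes followed the same course, with 11 of 17 higher (64.7%, against 4.77% of all genes), 0 lower and a median of 1.05. Trim10, needed for terminal red cell differentiation in mouse cells, had levels of 1703 and 1624 at 12.5 days and 2101 and 2187 at 13.5 days, against 496 and 302 at 11.5 days (log2 difference 2.24 ± 0.18 (SE), adjusted p = 5.6e-08). Mkrn1, a ubiquitin ligase, had 994 and 803 at 12.5 days and 1171 and 1187 at 13.5 days, against 229 and 167 at 11.5 days (log2 difference 2.30 ± 0.16 (SE), adjusted p = 1e-08). In both genes the order of the stages held on every array. Ube2l6, a conjugating enzyme of the ubiquitin-like protein ISG15, rose by 1.54 (adjusted p = 3.5e-05), and Fn3k, a kinase that removes sugar adducts from proteins, by 2.59 (adjusted p = 4.8e-05). The list held 8 higher calls without the second 11.5-day array, and Fn3k differed by 1.71 with a constant of 64 and was not called with only the 6 arrays fitted.

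Of 17 transcription factors of the red cell lineage, 9 were higher (52.9%, against 4.77% of all genes), 0 lower, with a median of 0.51. E2f2, a cell cycle factor with a role in red cell precursors, had levels of 1322 and 1384 at 12.5 days and 1179 and 1681 at 13.5 days, against 254 and 162 at 11.5 days (log2 difference 2.67 ± 0.31 (SE), adjusted p = 5e-06). Nfe2, a subunit of a globin locus activator, had 1197 and 1119 at 12.5 days and 1303 and 1464 at 13.5 days, against 441 and 386 at 11.5 days (log2 difference 1.58 ± 0.16 (SE), adjusted p = 1.1e-06). Both were separated from 11.5 days by more than the range among the later arrays. The master regulators differed less. Klf1, which turns on the adult beta globin gene, had levels of 2710.3 and 2585 at 12.5 days and 3076 and 2948 at 13.5 days, against 1803 and 1358 at 11.5 days (log2 difference 0.84 ± 0.20 (SE), adjusted p = 0.013). Gata1, required for red cell and megakaryocyte development, had 1377 and 1337 at 12.5 days and 1478 and 1365 at 13.5 days, against 1015 and 961 at 11.5 days (log2 difference 0.48 ± 0.12 (SE), adjusted p = 0.018). Neither overlapped between the groups. Zbtb7a, a repressor of embryonic-type globins in human and mouse red cells, and Klf3, a repressor induced by Klf1, rose by 0.84 and 0.73. Bcl11a, a repressor of embryonic globins that like Myb is named after its values were seen, was not called (-0.14, adjusted p = 0.77), and neither was Myb, a progenitor factor, at 463 and 543 at 12.5 days and 536 and 536 at 13.5 days, against 742 and 796 at 11.5 days (-0.55, adjusted p = 0.087). Leaving out 1 array ended the calls of Klf1 (0.64) without the second 11.5-day array, of Klf3 (0.68 to 0.78) without either 11.5-day array, and of Gata1 (0.45 to 0.52) without either 11.5-day array, the first 12.5-day array or the first 13.5-day array. Zbtb7a differed by 0.13 with no call once probe sets that can bind several transcripts were left out. Among the transcription factors, the number called higher was 3 with only the 12.5-day arrays, 4 without the first 11.5-day array and 3 without the second.

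Of 16 members of the iron list 1 was called higher (6.25%, against 4.77% of all genes), and it was Epor, the receptor of the red cell hormone erythropoietin (levels of 845 and 886 at 12.5 days and 1248 and 919 at 13.5 days, against 718 and 513 at 11.5 days; 0.65, adjusted p = 0.038). Tfrc, the transferrin receptor that brings iron into the cell, had 4617 and 4607 at 12.5 days and 5260.5 and 5108 at 13.5 days, against 3260.1 and 2706 at 11.5 days and was not called (0.72, adjusted p = 0.16). Slc2a1, the main glucose transporter of many cells, had 3307 and 2572 at 12.5 days and 2985 and 3376 at 13.5 days, against 739.9 and 691 at 11.5 days and rose (log2 difference 2.06 ± 0.19 (SE), adjusted p = 1.9e-07). Rb1, a brake on the cell cycle that red cell maturation depends on in the mouse, had 1023 and 865 at 12.5 days and 942 and 1116 at 13.5 days, against 395 and 355 at 11.5 days (log2 difference 1.35 ± 0.16 (SE), adjusted p = 6.5e-06). Groups did not overlap in any of these 4 genes. The fit with 1 array left out lost the call of Epor (0.41 to 0.67) without the second 11.5-day array, either 12.5-day array or the first 13.5-day array. Among iron genes, the number called higher was 3 with quantile normalization, 6 with only the embryonic arrays fitted, 2 with only the 13.5-day arrays, 0 with only the 12.5-day arrays and 0 without the second 11.5-day array. Rb1 differed by 0.75 over the mean of its probe sets.

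Since the genes above rose together, their promoters were searched for AGATAA, a form of the sequence that GATA factors such as Gata1 bind, on both strands (TTATCT on the other), with no other motif searched. The windows, from RefSeq on build GRCm38.p6, hold 300 bases each, from 250 before to 50 after a gene start, and a gene counted once if any of its windows held the motif. It was found for 14 of 49 red cell genes with a window (28.6%, the 4 lists of heme synthesis, membrane, maturation and transcription factors together), against 11.2% of all 32851 windows. Among the megakaryocyte and platelet genes, of which more were lower than higher, it was found for 5 of 13 (38.5%), the same share as in the red cell membrane list. Among genes called higher the share was 13.2% (92 of 697), among genes called lower 11.9% (26 of 219) and among genes not called 9.31% (1260 of 13536). These shares are descriptions, and a match is not a site shown to be bound. The windows of Alas2 (chrX:150547167-150547466, plus strand), Icam4 (chr9:21029182-21029481, plus strand) and Trim10 (chr17:36869324-36869623, plus strand) are shown as red cell genes described above whose window holds the motif, and that of the platelet gene Pf4 (chr5:90772185-90772484, plus strand) as one that fell. They run 5′ to 3′, with the motif in capitals.
Alas2: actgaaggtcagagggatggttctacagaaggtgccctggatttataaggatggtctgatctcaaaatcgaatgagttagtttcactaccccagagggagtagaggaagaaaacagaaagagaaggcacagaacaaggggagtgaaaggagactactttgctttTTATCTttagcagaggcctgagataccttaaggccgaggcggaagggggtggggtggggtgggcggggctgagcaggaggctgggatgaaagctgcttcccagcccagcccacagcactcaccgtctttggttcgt
Icam4: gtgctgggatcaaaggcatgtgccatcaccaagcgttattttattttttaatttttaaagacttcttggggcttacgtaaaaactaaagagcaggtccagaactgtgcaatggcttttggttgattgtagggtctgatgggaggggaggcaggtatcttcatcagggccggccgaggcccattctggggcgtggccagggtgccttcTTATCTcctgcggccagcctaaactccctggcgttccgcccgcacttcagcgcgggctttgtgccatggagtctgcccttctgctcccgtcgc
Trim10: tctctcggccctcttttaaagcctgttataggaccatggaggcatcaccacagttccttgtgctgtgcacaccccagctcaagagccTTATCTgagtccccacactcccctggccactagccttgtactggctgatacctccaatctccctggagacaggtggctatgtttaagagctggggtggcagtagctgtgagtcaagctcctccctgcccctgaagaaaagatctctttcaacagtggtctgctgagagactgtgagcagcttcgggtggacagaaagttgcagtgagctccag
Pf4: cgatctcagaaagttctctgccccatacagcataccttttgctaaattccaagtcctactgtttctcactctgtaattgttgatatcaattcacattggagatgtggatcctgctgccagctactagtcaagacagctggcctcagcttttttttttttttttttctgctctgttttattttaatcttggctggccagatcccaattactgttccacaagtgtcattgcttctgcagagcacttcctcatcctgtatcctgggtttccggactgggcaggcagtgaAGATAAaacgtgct

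Platelet and megakaryocyte genes moved the other way. Of 17 measured, 8 were lower (47.1%, against 1.53% of all genes) and 1 higher (5.88%, against 4.77%), with a median of -0.57. Pf4, a chemokine stored in platelet granules, had levels of 2586 and 2668 at 12.5 days and 2215 and 2366 at 13.5 days, against 4047 and 4471 at 11.5 days (log2 difference -0.79 ± 0.11 (SE), adjusted p = 7.7e-05). Tubb1, the platelet form of beta tubulin, had 296 and 371 at 12.5 days and 336 and 355 at 13.5 days, against 618 and 697 at 11.5 days (log2 difference -0.92 ± 0.16 (SE), adjusted p = 0.00048). Plek, a target of protein kinase C in platelets, had 328 and 450.4 at 12.5 days and 372 and 369 at 13.5 days, against 790.2 and 884 at 11.5 days (log2 difference -1.11 ± 0.20 (SE), adjusted p = 0.00099). All 4 later arrays lay below both 11.5-day arrays in these 3 genes, with little change between 12.5 and 13.5 days. Clec1b, the platelet receptor for podoplanin, fell by 0.77 (adjusted p = 0.00024). Pf4, Tubb1 and Clec1b had been lower still at 10.5 days, with means of 1561, 137 and 164, so 11.5 days was the highest of the 6 embryonic stages in these 3 genes. The exception in direction was Selp, the adhesion molecule P-selectin of platelets and endothelium, at 85.8 and 93.4 at 12.5 days and 80.4 and 62.3 at 13.5 days, against 49.5 and 41.9 at 11.5 days (0.64, adjusted p = 0.027). Ppbp, another platelet chemokine, and Itga2b, the platelet integrin, named after their values were seen, were below 11.5 days on all 4 arrays but not called (-0.50, adjusted p = 0.29, and -0.36, adjusted p = 0.46). Omission of 1 array ended the call of Selp (0.55 to 0.73) without either 11.5-day array, either 12.5-day array or the first 13.5-day array. Over the mean of a gene's probe sets the call ended for Selp (0.29). Among the 17 genes, the number called lower was 4 with only the 12.5-day arrays, 5 without the first 11.5-day array and 4 without the second. Selp differed by 0.39 with a constant of 64.

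Granule genes of the myeloid cells rose in part, with a median of 0.38. Of 21, 6 were higher (28.6%, against 4.77% of all genes) and 1 lower (4.76%, against 1.53%). Ltf, the granule protein lactoferrin, had levels of 155 and 167 at 12.5 days and 234 and 209 at 13.5 days, against 101 and 100.2 at 11.5 days (log2 difference 0.82 ± 0.12 (SE), adjusted p = 6.2e-05). Camp, an antimicrobial peptide of neutrophils, had 106 and 130.1 at 12.5 days and 204 and 211 at 13.5 days, against 54.0 and 30.0 at 11.5 days (log2 difference 1.61 ± 0.27 (SE), adjusted p = 0.00051). The later stage was the higher in both genes. Ctsg, the granule protease cathepsin G, and Ngp, a neutrophil granule protein, rose by 1.04 and 1.35. Cpa3, a protease of mast cells, was the lower member, at 37.8 and 48.1 at 12.5 days and 28.5 and 27.1 at 13.5 days, against 64.5 and 124.6 at 11.5 days (-1.07, adjusted p = 0.0016). Mpo, the peroxidase of immature granulocytes, was not called and its groups overlapped (0.27, adjusted p = 0.61). With 1 array fewer the fit lost the call of Cpa3 (-0.67) without the second 11.5-day array. Among the granule genes, the number called higher was 3 with only the 12.5-day arrays.

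Of 23 macrophage and Kupffer cell genes, 3 were higher and 0 lower. Cd5l, a secreted macrophage protein, had levels of 436 and 258 at 12.5 days and 622 and 673 at 13.5 days, against 139 and 70.8 at 11.5 days (log2 difference 2.06 ± 0.34 (SE), adjusted p = 0.00037). All 4 later arrays lay above both 11.5-day arrays, the second of 12.5 days being the lowest of the 4. Marco, a scavenger receptor, and Spic, a transcription factor of iron-recycling macrophages, rose by 1.05 and 0.53. Among 21 stem and progenitor genes, Mecom, a stem cell transcription factor, was higher (1.04, adjusted p = 0.0024) and the list median was 0.03. This single rise is 4.76% of the list, near the 4.77% of all genes. Meis1, a homeobox factor of stem cells and megakaryocytes, was lower, at 169 and 209.6 at 12.5 days and 124 and 145.3 at 13.5 days, against 265 and 421 at 11.5 days (adjusted p = 0.04). Kit, the stem cell factor receptor, was not called (-0.44, adjusted p = 0.29). Of 14 lymphoid genes only Blnk, an adaptor of B cell signalling, was called (higher, 0.55, adjusted p = 0.022), which is 7.14% of them. Leaving out 1 array ended the calls of Mecom (0.90) without the second 11.5-day array, of Marco (0.94 to 1.16) without either 11.5-day array, and of Spic (0.32 to 0.48) without the first 11.5-day array or the first 12.5-day array. It also ended those of Blnk (0.40 to 0.51) without the second 11.5-day array, the first 12.5-day array or the first 13.5-day array, and of Meis1 (-1.07 to -0.68) without the second 11.5-day array, either 12.5-day array or either 13.5-day array. With the probe sets of a gene averaged, the call ended for Mecom (0.27), Meis1 (-0.36) and Spic (0.45). Among macrophage genes, the number called higher was 1 with only the 12.5-day arrays and 1 without the first 11.5-day array. Marco differed by 1.75 without probe sets that can bind several transcripts.

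Plasma protein genes of the hepatocyte lineage rose in part, with 13 of 38 higher (34.2%, against 4.77% of all genes), 0 lower and a median of 0.79. Ahsg, the carrier protein fetuin-A, had levels of 1083 and 709.7 at 12.5 days and 2046 and 1845 at 13.5 days, against 233 and 186 at 11.5 days (log2 difference 2.56 ± 0.23 (SE), adjusted p = 2e-07). Apoh, a phospholipid-binding apolipoprotein, had 1252 and 794 at 12.5 days and 1567 and 1800.3 at 13.5 days, against 233 and 161 at 11.5 days (log2 difference 2.64 ± 0.31 (SE), adjusted p = 4.9e-06). The second array of 12.5 days was the lowest of the 4 later arrays in both genes, and still lay above both 11.5-day arrays. Kng1, the precursor of the peptide bradykinin, had 792 and 539 at 12.5 days and 1094 and 1228 at 13.5 days, against 284 and 229 at 11.5 days (log2 difference 1.71 ± 0.27 (SE), adjusted p = 0.00026). Hpx, which binds free heme in plasma, rose by 1.18 (adjusted p = 0.0017), and Fga, the alpha chain of fibrinogen, named after its values were seen, by 1.07 (adjusted p = 0.0053). Apoc4, an apolipoprotein outside the list and among the 15 largest rises, had 175 and 75.1 at 12.5 days and 259 and 281 at 13.5 days, against 3.23 and -2.68 at 11.5 days (log2 difference 3.47 ± 0.34 (SE), adjusted p = 5.1e-07). It was close to 0 at 11.5 days, so that the constant sets the size of its difference (1.91 with 64), and highest at 13.5 days.

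Plasma protein genes stood higher at 13.5 than at 12.5 days in 35 of 38 genes, with a median difference of 0.54, and 1 of them, Hp, was called. Of the list, 20 were higher with quantile normalization (4.41% of all genes were) and 21 with only the embryonic arrays fitted (6.87% of all genes). Set against 11.5 days, 17 members were higher using only the 13.5-day arrays (4.45% of all genes) and 4 using only those of 12.5 days (2.73%). Over the 6 embryonic stages, youngest first, the means of Ahsg were 4.59, 209, 897, 1945, 3346 and 3375. For Alas2 they were 429.99, 579.9, 3356, 4214, 4267 and 4652, so its level changed little after 13.5 days while that of Ahsg went on rising to 14.5 days. The count of plasma protein calls rests on the 11.5-day arrays, with 5 without the first and 3 without the second, among which Hpx (1.09 without the second) and Fga (1.09 and 1.04 without the first and the second) were not called.

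**Figure D3:**
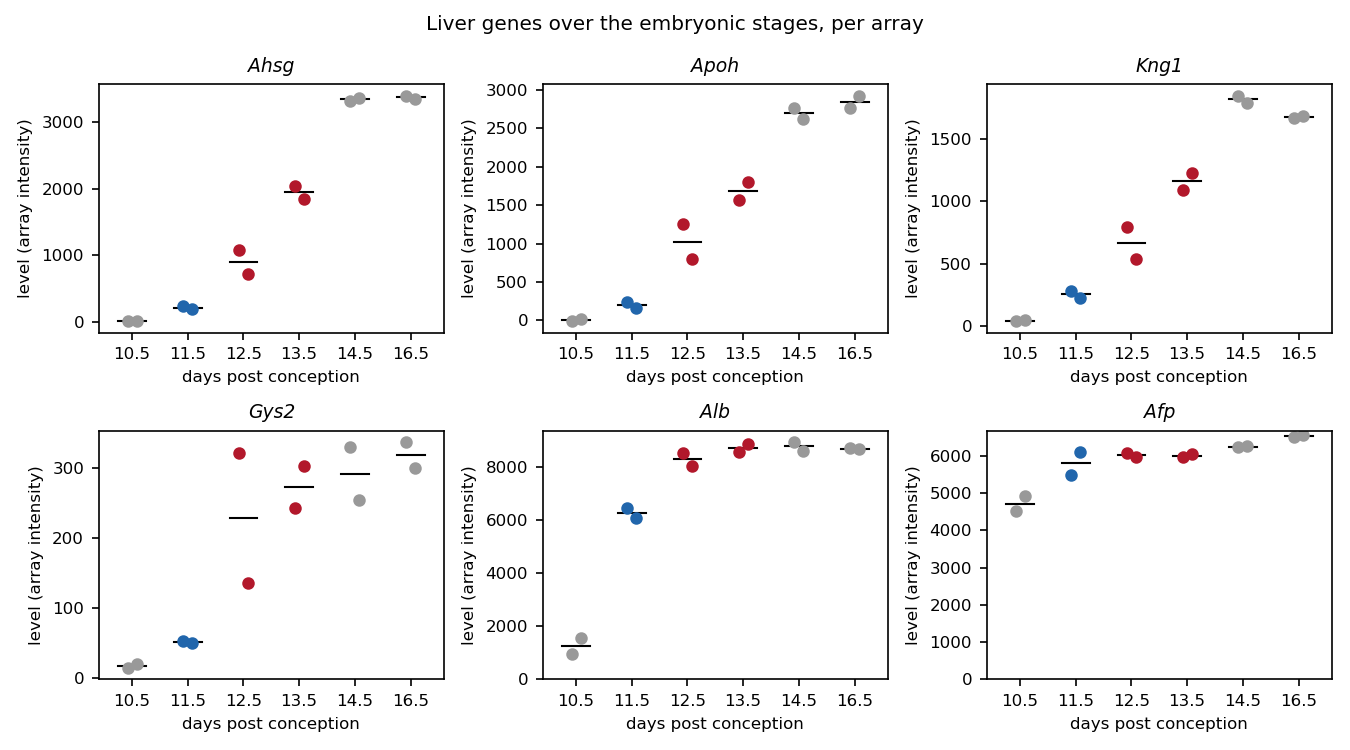
Levels of 6 liver genes (vertical axis, array intensity) over the 6 embryonic stages (horizontal axis, days post conception). Points are single arrays, red for 12.5 and 13.5 days, blue for 11.5 days and grey for the other stages, and bars are means of 2; Ahsg, Apoh and Kng1 step up at each stage to 14.5 days, while Afp lies between 5496 and 6108 from 11.5 to 13.5 days.

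Genes of liver metabolism rose in smaller numbers. In sugar metabolism 4 of 13 were higher (30.8%, against 4.77% of all genes) and 0 lower. Gys2, the glycogen synthase of liver, had levels of 322 and 135.3 at 12.5 days and 243 and 303 at 13.5 days, against 53.1 and 50.7 at 11.5 days (log2 difference 1.91 ± 0.23 (SE), adjusted p = 7.5e-06). Slc2a2, the glucose transporter of hepatocytes, rose by 1.04, Pcx, which feeds glucose synthesis from pyruvate, by 1.16, and Pygl, the liver enzyme of glycogen breakdown, by 0.60. No array of the later stages overlapped 11.5 days in these 4 genes. In the urea cycle and amino acid breakdown 5 of 25 were higher (20%) and 0 lower. Otc, a urea cycle enzyme, had 337 and 196 at 12.5 days and 376 and 449 at 13.5 days, against 116 and 121 at 11.5 days (log2 difference 1.35 ± 0.26 (SE), adjusted p = 0.0019). Bhmt, which remakes methionine, Dpys, of pyrimidine breakdown, Aass, of lysine breakdown, and Kmo, of tryptophan breakdown, rose by 1.29, 1.28, 0.82 and 0.75, Kmo being named after its values were seen. Cps1, the entry enzyme of the urea cycle, had 251 and 175 at 12.5 days and 244 and 267 at 13.5 days, against 107 and 155 at 11.5 days and was not called (0.77, adjusted p = 0.14). The fit with 1 array left out lost the calls of Bhmt (1.15) and Dpys (1.02) without the first 11.5-day array, of Slc2a2 (1.01 to 1.06) without either 11.5-day array, and of Pcx (1.04 to 1.21) without either 11.5-day array or the first 12.5-day array. The same held for those of Kmo (0.45 to 0.65) without the second 11.5-day array, the first 12.5-day array or the second 13.5-day array, of Aass (0.72 to 0.89) without either 11.5-day array, the first 12.5-day array or the second 13.5-day array, and of Pygl (0.51 to 0.67) without either 11.5-day array, the first 12.5-day array or either 13.5-day array. The mean of all probe sets gave no call for Otc (0.64) and Dpys (0.55). Among the genes of sugar metabolism, the number called higher was 2 with only the 12.5-day arrays, 1 without the first 11.5-day array and 1 without the second. Among the genes of urea and amino acid metabolism, the number called higher was 11 with quantile normalization, 8 with only the embryonic arrays fitted, 8 with only the 13.5-day arrays, 0 with only the 12.5-day arrays, 2 without the first 11.5-day array and 3 without the second.

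Cytochrome P450 and conjugation genes had 4 higher calls among 25 measured (16%, against 4.77% of all genes) and 0 lower calls. The 4 had low levels at 11.5 days. Gsta3, a glutathione transferase and among the 15 largest rises, had levels of 145.1 and 71.0 at 12.5 days and 217 and 238 at 13.5 days, against 11.01 and 5.80 at 11.5 days (log2 difference 2.81 ± 0.41 (SE), adjusted p = 0.0001). Cyp2d10, Cyp2d26 and Fmo5, which oxidise drugs and other foreign compounds, rose by 1.90, 1.68 and 1.63. Cyp2d26 lay below 0 on both 11.5-day arrays, so that its difference depends on the constant added. Of 21 lipid genes, Fabp1, the fatty acid binding protein of liver, and Acaa1b, a peroxisomal thiolase, were higher (1.37, adjusted p = 0.0053, and 1.27, adjusted p = 0.027). They are 9.52% of the lipid list, against 4.77% of all genes. Cyp2d10, Cyp2d26, Fmo5 and Acaa1b were not called with a constant of 64 in place of 16, and Gsta3 differed by 1.61. Omission of 1 array ended the calls of Fmo5 (1.29) and Fabp1 (1.29) without the second 11.5-day array, of Cyp2d26 (1.68) without either 11.5-day array, and of Acaa1b (0.99 to 1.56) without either 11.5-day array, the first 12.5-day array or the second 13.5-day array. Among the P450 and conjugation genes, the number called higher was 9 with quantile normalization, 11 with only the embryonic arrays fitted, 1 with only the 12.5-day arrays and 2 without the second 11.5-day array. Among the lipid genes, the number called higher was 5 with only the embryonic arrays fitted, 0 with only the 12.5-day arrays, 1 without the first 11.5-day array and 0 without the second.

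Of 25 transcription factors of liver 1 was higher (4%, near the 4.77% of all genes) and 0 lower, with a median of 0.11. Hnf4a, the main regulator of hepatocyte genes, had levels of 489 and 398 at 12.5 days and 515 and 555 at 13.5 days, against 399.8 and 438 at 11.5 days, with overlapping groups (0.21, adjusted p = 0.83). Cebpa, another regulator of hepatocyte genes, had 309.5 and 230.01 at 12.5 days and 383 and 320.1 at 13.5 days, against 209 and 214 at 11.5 days (0.50, adjusted p = 0.45). The call was Rora, a nuclear receptor, at 44.6 and 36.8 at 12.5 days and 44.7 and 40.7 at 13.5 days, against 21.0 and 18.8 at 11.5 days (0.68, adjusted p = 0.049). Its level was under the median of all values, and its call was lost in 14 of 18 alternatives, each of the 6 left-out arrays among them (0.63 to 0.73 without 1 array).

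Among 20 hepatoblast and oncofetal genes 2 were higher (10%, against 4.77% of all genes) and 1, Mdk, lower (5%, against 1.53%). Spink1, a trypsin inhibitor, and Cd24a, a surface protein also found on red cell precursors, were higher (1.23, adjusted p = 0.00028, and 0.70, adjusted p = 0.045). Mdk, the growth factor midkine, had levels of 1258 and 1104 at 12.5 days and 609 and 579 at 13.5 days, against 1666 and 2148 at 11.5 days (log2 difference -1.16 ± 0.16 (SE), adjusted p = 3.6e-05). It stepped down at each stage. Hmga2 and Arid3a are not in that list. A separate list of 10 RNA-binding and growth genes had 1 higher and 1 lower call (10% each). Hmga2, a chromatin protein of fetal growth, had 1077 and 1144 at 12.5 days and 547 and 570.5 at 13.5 days, against 1808 and 1909 at 11.5 days and fell likewise (log2 difference -1.22 ± 0.22 (SE), adjusted p = 0.0012). Arid3a, a DNA-binding protein of B cell and progenitor cells, had 784 and 873 at 12.5 days and 907 and 672 at 13.5 days, against 276 and 169 at 11.5 days (log2 difference 1.82 ± 0.19 (SE), adjusted p = 1e-06). No array overlapped between the groups in Mdk, Hmga2 or Arid3a. With 1 array fewer the fit lost the call of Cd24a (0.63 to 0.77) without either 11.5-day array, either 12.5-day array or either 13.5-day array.

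Mesenchymal genes fell in part: 5 of 32 were lower (15.6%, against 1.53% of all genes) and 0 higher, with a median of -0.20. Pdgfra, a growth factor receptor of mesenchyme, had levels of 327 and 335 at 12.5 days and 166 and 203 at 13.5 days, against 391 and 513 at 11.5 days (log2 difference -0.82 ± 0.16 (SE), adjusted p = 0.002). Hand2, a transcription factor of liver and heart mesenchyme, had 206 and 269 at 12.5 days and 146 and 156 at 13.5 days, against 318 and 339.6 at 11.5 days (log2 difference -0.75 ± 0.17 (SE), adjusted p = 0.007). The 13.5-day arrays were the lowest in both. Rgs5 and Pdgfrb, markers of cells around vessels, and Lhx2, a stellate cell transcription factor named after its values were seen, fell by 0.77, 0.57 and 0.79. Leaving out 1 array ended the calls of Pdgfra (-0.63), Hand2 (-0.70), Rgs5 (-0.56) and Pdgfrb (-0.44) without the second 11.5-day array, and of Lhx2 (-0.81 to -0.49) without the second 11.5-day array, either 12.5-day array or the first 13.5-day array. Over the mean of a gene's probe sets the call ended for Pdgfra (-0.35), Hand2 (-0.29) and Rgs5 (-0.49). Pdgfrb differed by -0.91 that way. None of these 5 was called with only the 12.5-day arrays set against 11.5 days, and 5 members of the list were with only those of 13.5 days.

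In other structural cell types 9.38% of endothelial, 23.1% of mesothelial and 10.3% of matrix genes were called in either direction, against 6.29% of all genes. Of 32 endothelial genes, Stab1, a scavenger receptor of sinusoids, was higher (0.57, adjusted p = 0.034), and Aplnr, the apelin receptor, and Robo4, a guidance receptor of vessels, were lower (-0.64, adjusted p = 0.014, and -0.40, adjusted p = 0.049). Stab2, the partner of Stab1 in liver sinusoids, was not called (0.25, adjusted p = 0.55). Of 13 mesothelial genes, Bnc1, a zinc finger factor, and Rspo1, an enhancer of Wnt signalling, were lower (-0.68, adjusted p = 0.023, and -0.62, adjusted p = 0.029), and Upk1b, a uroplakin, was higher (0.81, adjusted p = 0.0093). All 13 mesothelial genes were lower at 13.5 than at 12.5 days, none of them called. Of 29 matrix genes, Col6a3 and Col14a1, 2 collagens, and Eln, elastin, were higher (0.63, adjusted p = 0.01, 0.63, adjusted p = 0.024, and 0.61, adjusted p = 0.011), while Col1a1, the main collagen of fibrous tissue, was not called (0.43, adjusted p = 0.32). The fit with 1 array left out lost the calls of Upk1b (0.58) and Col6a3 (0.54) without the second 11.5-day array, of Eln (0.59 to 0.63) without either 11.5-day array, and of Aplnr (-0.56 to -0.51) without the second 11.5-day array or the first 13.5-day array. This was also true of those of Bnc1 (-0.72 to -0.62) without either 11.5-day array, the first 12.5-day array or the first 13.5-day array, of Col14a1 (0.48 to 0.77) without either 11.5-day array, the first 12.5-day array or the second 13.5-day array, and of Stab1 (0.51 to 0.61) without either 11.5-day array, the second 12.5-day array or the first 13.5-day array. It also ended those of Rspo1 (-0.64 to -0.42) without the second 11.5-day array, the second 12.5-day array or either 13.5-day array, and of Robo4 (-0.49 to -0.31) without either 11.5-day array, the first 12.5-day array or either 13.5-day array. With the probe sets of a gene averaged, the call ended for Aplnr (-0.37) and Upk1b (0.22). Among endothelial genes, the number called lower was 1 with only the embryonic arrays fitted, 4 with only the 13.5-day arrays, 0 with only the 12.5-day arrays, 1 without the first 11.5-day array and 0 without the second. Among mesothelial genes, the number called lower was 1 with only the embryonic arrays fitted, 0 with only the 12.5-day arrays, 1 without the first 11.5-day array and 0 without the second. Among matrix genes, the number called higher was 6 with only the embryonic arrays fitted and 0 without the second 11.5-day array. Col14a1 differed by 0.37 over the mean of its probe sets.

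**Figure D4:**
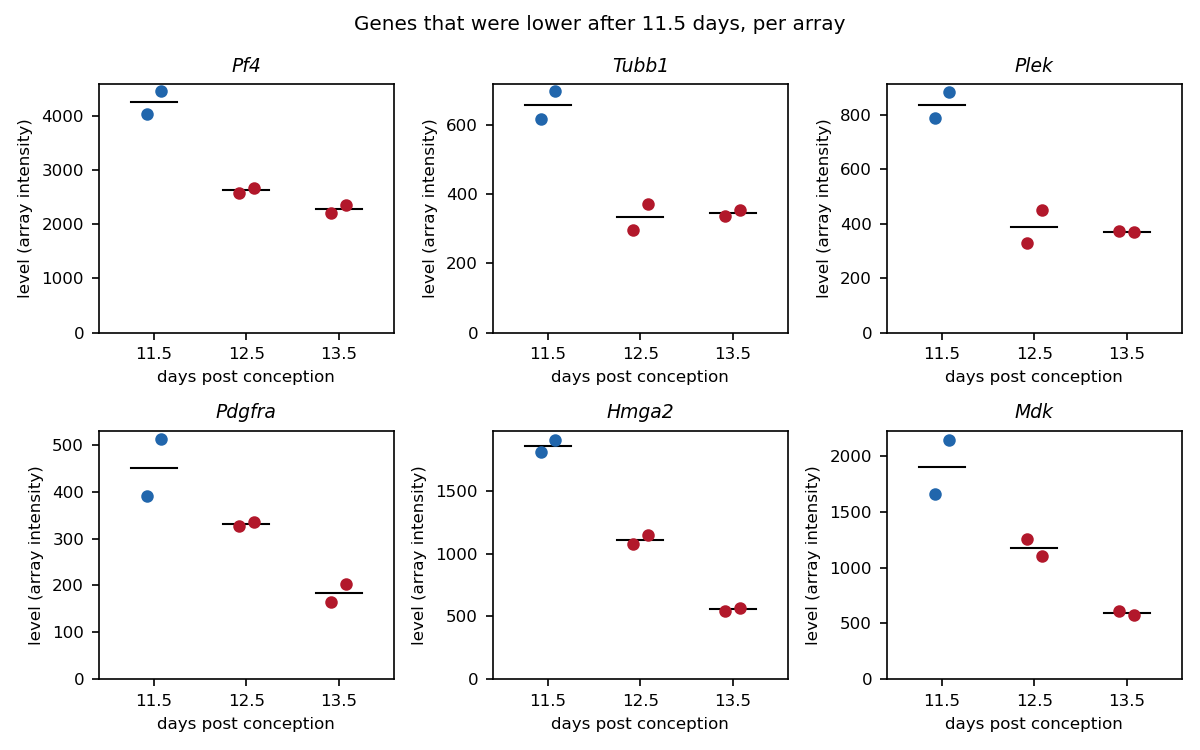
Levels of 6 genes called lower (vertical axis, array intensity) at 11.5, 12.5 and 13.5 days post conception (horizontal axis). Points are arrays and bars means of 2; the platelet genes Pf4, Tubb1 and Plek lie about level at 12.5 and 13.5 days, while Pdgfra, Hmga2 and Mdk are lowest at 13.5 days, at 579 and 609 for Mdk.

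None of 29 DNA replication genes was called by limma, with a median of 0.23, and 4 were with only the embryonic arrays fitted. Of 32 mitosis genes 2 were higher (6.25%, against 4.77% of all genes), the proliferation marker Mki67 (1.32, adjusted p = 0.044) and the spindle protein Nusap1 (0.88, adjusted p = 0.046), and 12 were with only the embryonic arrays and 0 with only the 13.5-day or only the 12.5-day arrays. Cdk1, the kinase that drives mitosis, had levels of 1837 and 1947 at 12.5 days and 1984 and 1958 at 13.5 days, against 1833 and 1830.3 at 11.5 days (0.08, adjusted p = 0.98). Among 25 genes of the G1 phase 3 were higher (12%). Rb1, given above, Cdkn1b, an inhibitor of cyclin-dependent kinases, and E2f4, a repressing E2F factor with a role in red cell maturation, were higher (0.76, adjusted p = 0.0058 for Cdkn1b, and 0.68, adjusted p = 0.0089 for E2f4). Omission of 1 array ended the calls of Cdkn1b (0.75 to 0.77) and E2f4 (0.68) without either 11.5-day array, and of Mki67 (1.15 to 1.50) and Nusap1 (0.80 to 0.95) without either 11.5-day array, either 12.5-day array or either 13.5-day array. The mean of all probe sets gave no call for Nusap1 (0.59) and Cdkn1b (0.23). Among the G1 genes, the number called higher was 7 with only the embryonic arrays fitted, 1 with only the 12.5-day arrays, 1 without the first 11.5-day array and 1 without the second. Of 25 ribosome assembly genes 23 had a difference below 0, with a median of -0.31 against 0.0093 over all genes, and none of those was called, although 5 of the list were lower with only the embryonic arrays fitted. Nip7, which processes ribosomal RNA, had 497 and 560.3 at 12.5 days and 436 and 453 at 13.5 days, against 689 and 761 at 11.5 days (-0.57, adjusted p = 0.16). The call was Polr1a, the largest subunit of RNA polymerase I, which was higher at 681 and 716 at 12.5 days and 678 and 610.1 at 13.5 days, against 266 and 239.6 at 11.5 days (log2 difference 1.35 ± 0.13 (SE), adjusted p = 5.1e-07). Over the mean of a gene's probe sets the call ended for Polr1a (0.25).

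In the list of hypoxia and glycolysis 3 of 21 genes were lower (14.3%, against 1.53% of all genes). In that list 1, Slc2a1, was higher (4.76%, near the 4.77% of all genes). Pkm, the pyruvate kinase of growing tissues, had levels of 1066 and 1285 at 12.5 days and 894 and 826 at 13.5 days, against 1785 and 1869 at 11.5 days (-0.85, adjusted p = 0.004). Slc2a3, a neuronal-type glucose transporter, and Ankrd37, a hypoxia target, fell by 0.61 and 0.67. Nqo1, a detoxifying reductase, was the call of 19 stress genes (higher, 0.88, adjusted p = 0.0024), a share of 5.26%, near that of all genes. Mt2, a metallothionein, had 5749 and 4574 at 12.5 days and 5679.7 and 6035 at 13.5 days, against 2712 and 2326 at 11.5 days and was not called (1.12, adjusted p = 0.075). Among stress genes, the number called higher was 5 with quantile normalization, 8 with only the embryonic arrays fitted, 2 with only the 13.5-day arrays and 0 without the second 11.5-day array. None of 12 bile duct genes, 22 cytokine genes, 16 imprinted genes and 4 sex chromosome genes was called. With 1 array fewer the fit lost the calls of Pkm (-0.82) and Nqo1 (0.80) without the second 11.5-day array, of Ankrd37 (-0.69 to -0.54) without either 11.5-day array, the second 12.5-day array or the first 13.5-day array, and of Slc2a3 (-0.65 to -0.56) without either 11.5-day array, the first 12.5-day array or either 13.5-day array.

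Genes outside the lists had some of the largest differences. Tent5c, a poly(A) polymerase, had levels of 1516 and 1109.7 at 12.5 days and 1517 and 1650.05 at 13.5 days, against 137 and 75.01 at 11.5 days (log2 difference 3.62 ± 0.41 (SE), adjusted p = 3.6e-06). Slc2a9, a urate transporter, had 1384 and 1029 at 12.5 days and 1298 and 1353 at 13.5 days, against 148 and 59.4 at 11.5 days (log2 difference 3.52 ± 0.35 (SE), adjusted p = 6.1e-07). Adcy9, an adenylyl cyclase, had 1104 and 856 at 12.5 days and 848 and 1025 at 13.5 days, against 143 and 105.4 at 11.5 days (log2 difference 2.80 ± 0.19 (SE), adjusted p = 6.1e-09). All 3 genes rose to a level that was about the same at 12.5 and 13.5 days. Msi2, an RNA-binding protein of stem cells, averaged 1456 ± 193 (SD, n = 4) at 12.5 and 13.5 days and 168 ± 97.3 (SD, n = 2) at 11.5 days (3.10, adjusted p = 3.4e-06), but with all of its 8 probe sets averaged the difference was 0.33 and not called. Col17a1, a collagen of cell anchoring, and Car3, a carbonic anhydrase, rose by 3.39 and 3.06. Carmil2, a regulator of actin capping, had 822 and 781 at 12.5 days and 1663 and 789 at 13.5 days, against -72.7 and -163 at 11.5 days. Golt1a, a protein of vesicle transport, had 469.7 and 336 at 12.5 days and 321 and 329 at 13.5 days, against -87.9 and -90.8 at 11.5 days. Both lay below 0 on the 11.5-day arrays, so no fold is given for them (adjusted p = 1.9e-15 and 1.9e-15). Values below 0 were set to 0 for the test, so these p-values leave out the spread between those arrays. Ism1, a secreted protein, and Gpr12, an orphan receptor, differed by 3.41 and 3.34, with an 11.5-day array below 0 in each. Leaving out 1 array ended the calls of Ism1 (2.12) and Gpr12 (2.03) without the second 11.5-day array. Over the mean of their probe sets the differences were smaller for Slc2a9 (1.70), Adcy9 (0.76), Car3 (1.22), Carmil2 (2.06), Ism1 (1.06) and Gpr12 (1.13). With a constant of 64 Col17a1 differed by 2.11.

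The largest falls were to values at or below 0. Of the 278 falls, 18 had all 4 later arrays at or below 0. Jag2, a ligand of Notch receptors, had levels of -63.1 and -101 at 12.5 days and -52.4 and -37.4 at 13.5 days, against 177 and 163 at 11.5 days. Rsph3a, a protein of motile cilia, had -98.8 and -4.23 at 12.5 days and -80.5 and -52.6 at 13.5 days, against 354 and 382 at 11.5 days. Neither gets a fold, and the adjusted p was 1.4e-12 and 1.9e-05. All 4 later arrays were set to 0 for the test, so these p-values leave out the spread between them. Serpinb6e, a protease inhibitor, had -6.00 and 51.2 at 12.5 days and -17.8 and -6.16 at 13.5 days, against 185 and 195 at 11.5 days. Hopx, a homeodomain protein of heart and stem cells, had -41.2 and 106 at 12.5 days and -63.8 and -98.7 at 13.5 days, against 189.5 and 169 at 11.5 days. Nr2f1, a nuclear receptor, had -20.6 and 88.0 at 12.5 days and 2.51 and 15.7 at 13.5 days, against 150.04 and 200.5 at 11.5 days. The second array of 12.5 days was the highest of the later arrays in these 3 genes (adjusted p = 5.4e-06, 0.00033 and 0.00081). It lay below both 11.5-day arrays, as the rule for naming the largest falls required. Hopx was not called over the mean of its probe sets (-1.17). Jag2 and Rsph3a have 2 probe sets each. Over their mean the differences were smaller, at -1.82 against -3.54 for Jag2 and -2.24 against -4.58 for Rsph3a.

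Among markers of neighbouring organs, genes of heart muscle moved with the 12.5-day arrays. Of 28 measured, 5 were higher (17.9%, against 4.77% of all genes) and 1 lower (3.57%, against 1.53%) at 12.5 and 13.5 days. Heart muscle genes made up 4 of the 5, and the calls outside heart muscle were Cdx1 and Barx1. The 10 heart muscle genes of that list, set apart after their values were seen, are Nkx2-5, Myl7, Myh6, Tnnt2, Actc1, Tbx5, Tbx20, Myl4, Actn2 and Ttn. Their summed level was 3352 and 8955 at 12.5 days and 1102 and 1389 at 13.5 days, against 823 and 835 at 11.5 days, and it was 18860.5 and 12708 at 10.5 days. None of the 10 was at or below 0 on either 11.5-day array. 4 of the 10 were called higher, and 1 with only the 13.5-day arrays. Actc1, the cardiac actin, had levels of 1958 and 4319.9 at 12.5 days and 434 and 644 at 13.5 days, against 94.1 and 107 at 11.5 days (log2 difference 3.44 ± 0.28 (SE), adjusted p = 5e-08). Tnnt2, the cardiac troponin T, had 387 and 1303 at 12.5 days and 39.2 and 58.8 at 13.5 days, against 17.9 and 18.8 at 11.5 days (log2 difference 2.65 ± 0.31 (SE), adjusted p = 4.6e-06). The second 12.5-day array was highest in both. Myl4 and Actn2, a light chain and an actinin of muscle, differed by 1.73 and 1.61; without the 12.5-day arrays Tnnt2, Myl4 and Actn2 were not called (0.90, 0.74 and 0.87). Cdx1, a factor of the gut, was higher (1.07, adjusted p = 0.038), and Barx1, a factor of stomach mesenchyme, lower (-0.91, adjusted p = 0.0022). The fit with 1 array left out lost the calls of Barx1 (-0.77) and Myl4 (1.40) without the second 11.5-day array, of Actn2 (1.48 to 1.73) without either 11.5-day array, and of Cdx1 (0.71 to 1.13) without the second 11.5-day array, either 12.5-day array or either 13.5-day array. The part of heart tissue in the values of other genes was not tested. With only the 13.5-day arrays, whose heart sums also lay above those of 11.5 days, 9 genes were higher for heme synthesis, 12 for the membrane, 11 for maturation and 9 for transcription factors.

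**Figure D5:**
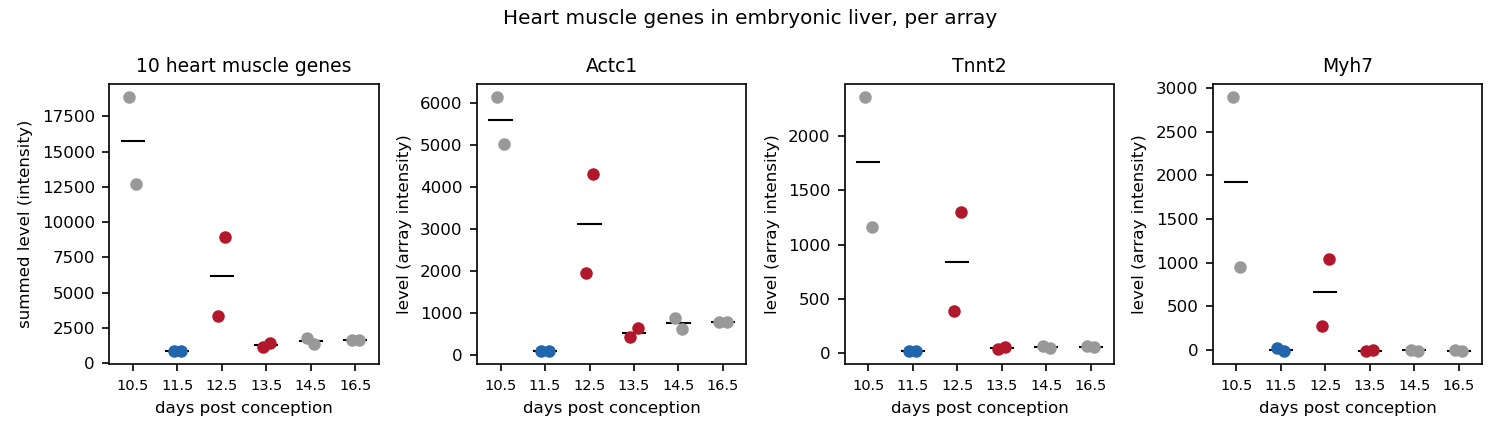
Summed level of 10 heart muscle genes and levels of 3 single genes (vertical axes, array intensity) over the 6 embryonic stages (horizontal axis, days post conception). Points are arrays, red for 12.5 and 13.5 days, blue for 11.5 days and grey otherwise, and bars are means of 2; the sum is 823 and 835 at 11.5 days, 3352 and 8955 at 12.5 days and 1102 and 1389 at 13.5 days.

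Heart genes were also lower at 13.5 days than at 12.5 days. Myh7, the slow myosin heavy chain, had levels of -14.3 and 3.66 at 13.5 days, against 275 and 1045 at 12.5 days (log2 difference -4.97 ± 0.47 (SE), adjusted p = 1.4e-05). Nppa, the atrial natriuretic peptide, had 4.32 and -7.52 at 13.5 days, against 178 and 1049.95 at 12.5 days (log2 difference -4.66 ± 0.47 (SE), adjusted p = 1.7e-05). The 13.5-day values of both genes were near 0, so that the constant sets the size of the difference (-3.22 and -2.97 with 64). Among genes named after their values were seen or given above, Tnnt2 differed by -3.50 between these stages, Actc1 by -2.42 and Myl4 by -1.98. Myl3 and Myl2, ventricular light chains, and Sh3bgr, a protein of heart and skeletal muscle, differed by -3.14, -2.70 and -2.52. In each of these 8 genes both 13.5-day arrays lay below both 12.5-day arrays. The rule for naming genes required this of all but Actc1 and Myl4, so it adds no support. Mdk fell further by 0.97 and Gja1, the gap junction protein connexin 43, named after its values were seen, by 1.31.

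The 4 rises at 13.5 days against 12.5 days were Itih4, A2m, Hp and Cyp27b1. Itih4, an acute phase protein of plasma, had levels of 204 and 157 at 13.5 days, against 49.4 and 11.5 at 12.5 days (log2 difference 2.20 ± 0.35 (SE), adjusted p = 0.0065), and it also differed from 11.5 days, where both arrays were below 0 (pooled adjusted p = 7.1e-06). A2m, a broad protease inhibitor of plasma, had 486 and 529 at 13.5 days, against 169 and 229.99 at 12.5 days (log2 difference 1.29 ± 0.23 (SE), adjusted p = 0.021), and it was also called higher over both later stages against 11.5 days, although the 12.5-day arrays overlapped with those of 11.5 days (0.79, adjusted p = 0.019; not called without the second array of 11.5, 12.5 or 13.5 days, 0.51 to 0.76, nor with quantile normalization, 0.69, or only the 12.5-day arrays, 0.14). Hp, the hemoglobin scavenger haptoglobin, named after its values were seen, had 47.4 and 41.1 at 13.5 days, against 7.90 and 6.74 at 12.5 days (log2 difference 1.37 ± 0.25 (SE), adjusted p = 0.021). Cyp27b1, which activates vitamin D, had 94.8 and 66.4 at 13.5 days, against 9.43 and -34.2 at 12.5 days (log2 difference 2.24 ± 0.39 (SE), adjusted p = 0.014). In all 4 genes both 13.5-day arrays lay above both 12.5-day arrays, which the rule for naming genes required of all but Hp. With a constant of 64 the differences were smaller for Itih4 (1.40), Cyp27b1 (1.07) and Hp (0.60). Hp and Cyp27b1 had low levels at these stages, and the mean of Cyp27b1 was 14.5 at the following stage. The 24 calls borrow their spread from all 32 arrays: 1 gene, none of those named here, was called with only the embryonic arrays fitted, and 0 by limma with only the 6 arrays (1422 at an unadjusted p under 0.05). Omission of 1 array ended the calls of Itih4 (1.58 to 2.03) and Myl3 (-2.63 to -2.40) without the second 12.5-day array or the first 13.5-day array, of A2m (1.09 to 1.35) without the first 12.5-day array or either 13.5-day array, and of Cyp27b1 (1.91 to 2.46), Myl2 (-2.82 to -2.05), Sh3bgr (-2.64 to -1.37) and Myl4 (-2.16 to -1.03) without the second 12.5-day array or either 13.5-day array. The same held for those of Hp (1.29 to 1.44) and Mdk (-1.06 to -0.88) without either 12.5-day array or either 13.5-day array. The number of calls was 65 without the first 12.5-day array, 15 without the first 13.5-day array and 11 without the second.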

How the data were processed

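Livers were profiled on 32 Affymetrix Mouse Genome 430 2.0 arrays, 2 per group in 16 groups. The deposited values are probe set intensities on a linear scale, as the authors' value table holds them. Per the labels, RNA was extracted with Trizol and labelled from 6 microg. The sources used here do not name the software, background treatment or normalization. The 6 arrays of 11.5 to 13.5 days had medians close to each other, as given for the series in the report, and their number limits the precision. Of 45101 probe sets, 64 are controls, 34945 were annotated with 1 gene, 932 with several and 9160 with none listed. Each of 18193 genes was represented by its probe set of highest mean over all 32 arrays. Intensities below 0 were set to 0 and transformed to log2(value + 16). A linear model with 1 mean per group over all 32 arrays was fitted with limma 3.58.1 in R 4.3.3, with a spread that follows the mean level (16 residual degrees of freedom). The contrasts were the mean of 12.5 and 13.5 days minus 11.5 days, and 13.5 minus 12.5 days, with Benjamini-Hochberg adjustment over all genes and calls at 0.05. All adjusted p-values are from this limma fit.

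Genes were named by a rule: the 15 largest rises and 15 largest falls without overlap of arrays and above the median of all values, 74.6, for each list up to 4 members with the smallest p, the 6 largest stage changes each way and genes known in fetal liver; exceptions are stated. The members and lists were chosen with earlier results of these data known. On simulated data for the comparison with 11.5 days (18193 genes), 65 of 66 genes changed by 2 on the log2 scale, 49 of 67 changed by 1 and 13 of 67 changed by 0.585 were called, beside 5 unchanged genes. Replicate numbers do not pair the arrays. Alternatives were the probe set rule, the constant, a filter on dim genes, quantile normalization, smaller sets of arrays, a replicate block and leaving out each array; where 1 array of a group was left, it was taken to vary like the other groups.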

Additional observations from a re-analysis of the deposited data

Results flagged for a closer look

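The effects of 12.5 and 13.5 days against 11.5 days, which share the 11.5-day arrays, differed for 14 named genes by the direct test of 13.5 against 12.5 days (limma, adjusted over all genes). Heart muscle genes were lower at 13.5 days: the log2 difference was -4.97 for Myh7, -4.66 for Nppa, -3.50 for Tnnt2, -3.14 for Myl3, -2.70 for Myl2, -2.52 for Sh3bgr, -2.42 for Actc1 and -1.98 for Myl4. Against 11.5 days, Tnnt2 differed by 0.90 at 13.5 days and by 4.41 at 12.5 days, and Actc1 by 2.23 and 4.65. Gja1 differed by -1.31 between the stages and Mdk by -0.97. Cyp27b1 (2.24), Itih4 (2.20), Hp (1.37) and A2m (1.29) were higher at 13.5 days. None of the 14 was called with only the embryonic arrays, or only the 6 arrays, in the fit.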

How the results depend on the processing

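The number of genes called at 12.5 and 13.5 days against 11.5 days was 1145, and it was 1720 with only the embryonic arrays fitted and 485 to 1006 with 1 array left out. With only the 12.5-day arrays, an alternative chosen after seeing the data, it was 579, and with only those of 13.5 days 1143. Between 13.5 and 12.5 days, 24 genes were called, against 49 with a constant of 64, 42 without the arrays of 10.5 days and 48 h, 1 with only the embryonic arrays and 0 by limma with only the 6 arrays (1422 at an unadjusted p under 0.05), and 11 to 65 with 1 array left out. The cause was not tested. The other alternatives gave 1086 to 1605 and 19 to 34 calls. The replicate block gave 1117 and 23 calls, and it ended calls of 4 named genes, all near the threshold: Rora, Cd24a, Robo4 and Mki67. Deviations of same-numbered arrays correlated at -0.16, 0.209 and -0.11 between pairs of stages, so the numbers do not pair the arrays. Crossed numbers, tried after seeing the data, gave 21 calls between 13.5 and 12.5 days. Directions turned for Hbb-y, to 0.0312 without the first 12.5-day array and 0.0107 without the first 13.5-day array (-0.0478 to 0.0312 with 1 array left out), and to 0.10 with only the 12.5-day arrays. They also turned for Hbb-b2, to -0.10 over the mean of probe sets and -2.35 without ambiguous probe sets, and for Afp, to -0.0625 over the mean of probe sets and -0.0208 without the first 11.5-day array (-0.0208 to 0.1311 with 1 array left out). Hba-a2, which was not called, turned to -0.1192 without the first 12.5-day array, -0.0606 without the second 11.5-day array and -0.031 without the second 13.5-day array (-0.1192 to 0.5022 with 1 array left out). Of 144 named calls, 58 were ended by no alternative. Alternatives also gave calls that the main fit did not: Alad, Cpox, Tfrc, Ppbp, Nip7 and Mt2 were called with only the embryonic arrays fitted. Over the mean of probe sets Fmo5 (0.84), Zbtb7a (0.27) and, between 13.5 and 12.5 days, Sh3bgr (-0.83) and Myl4 (-0.85) were also not called. Pcx (0.89), Dpys (0.52), Kmo (0.46), Hp (0.60) and Sh3bgr (-1.27) were not called with the constant of 64, nor were Upk1b (0.01), Fmo5 (0.50) and Myl3 (-1.81) without ambiguous probe sets. With quantile normalization Epor, Meis1, A2m, Pygl, Stab1, Col14a1, Mki67, Nusap1 and Cdx1 lost the call against 11.5 days and A2m that between the later stages. With only the 6 arrays fitted 31 of 130 named calls against 11.5 days were lost, those of Hbb-bh1, Hba-x, Fn3k, Epor, Slc2a2, Spink1, Ism1, Gpr12, Nr2f1 and Hopx among them, and with only the 12.5-day arrays 47. A constant of 64 also made the differences over 1.5 times smaller for Golt1a (2.73), Rsph3a (-2.75), Jag2 (-1.87), Serpinb6e (-1.78), Nr2f1 (-1.49), Hopx (-1.57), Cpa3 (-0.65), Actn2 (0.93), Cdx1 (0.71), Blnk (0.33), Spic (0.34), Bnc1 (-0.45), Rspo1 (-0.34) and Ankrd37 (-0.37). Values near or below 0 have no reliable order, and this limits the dimmest genes.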

Other observations

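Some genes outside the lists, chosen after their values were seen, were higher and have known roles in red cells. Xpo7, a nuclear exporter needed for condensation of red cell nuclei in mouse cells, had levels of 1930.2 and 1491 at 12.5 days and 1917 and 2489 at 13.5 days, against 339.5 and 426 at 11.5 days (log2 difference 2.29 ± 0.19 (SE), adjusted p = 5.7e-08). Ackr1, the chemokine receptor known as the Duffy antigen, had 555 and 485 at 12.5 days and 705 and 669.6 at 13.5 days, against 154 and 119.8 at 11.5 days (log2 difference 2.01 ± 0.17 (SE), adjusted p = 5.7e-08). Eif2ak1, the kinase that slows translation when heme is scarce, had 821 and 799 at 12.5 days and 1013 and 1157 at 13.5 days, against 374 and 298 at 11.5 days (log2 difference 1.45 ± 0.18 (SE), adjusted p = 1.3e-05). All 4 later arrays lay above both 11.5-day arrays in these 3 genes. Bcl2l1, which protects red cell precursors from death, Ncoa4, which releases iron from ferritin, and Abcg2, a porphyrin exporter, rose by 1.34, 1.06 and 0.82. Averaged over all probe sets the differences were smaller for Xpo7 (0.81), Eif2ak1 (0.76) and Bcl2l1 (0.89).

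Other falls, also chosen after the values were seen, lie outside the lists. Dnmt3a, a DNA methyltransferase that sets new methylation, had levels of 198 and 233 at 12.5 days and 180.3 and 207 at 13.5 days, against 357 and 449 at 11.5 days (log2 difference -0.92 ± 0.14 (SE), adjusted p = 0.00016). Dnmt3b, its relative, had 161 and 161 at 12.5 days and 158 and 167 at 13.5 days, against 255 and 338 at 11.5 days (log2 difference -0.80 ± 0.17 (SE), adjusted p = 0.0038). The later arrays were below 11.5 days without overlap in both genes. Fscn1, an actin bundler, Asb4, an adaptor of a ubiquitin ligase, and Isl1, a homeobox factor of heart and pancreas progenitors, fell by 1.63, 1.77 and 1.67. With 1 array fewer the fit lost the call of Dnmt3b (-0.61) without the second 11.5-day array. Over the mean of its probe sets Fscn1 was not called (-0.65), and the differences were smaller for Dnmt3a (-0.44), Dnmt3b (-0.50) and Isl1 (-0.62).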
